A study of Mus musculus with 6 samples.

Results

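The BCL2 family is the set of proteins that decides at the mitochondrial surface whether a cell starts apoptosis. Transcripts of 10 of its genes were followed in CD4 T cells, out of 56748 genes in the deposited table. The 10 were chosen by name and by role, without a rule on their counts but with earlier results of these data known. They are 4 pro-survival genes (*Bcl2*, *Bcl2l1*, *Mcl1* and *Bcl2a1b*), 4 genes of the BH3-only class (*Bcl2l11*, *Bbc3*, *Pmaip1* and *Bid*) and the 2 effectors *Bax* and *Bak1*. The other genes of the family (17) and genes that act around it in apoptosis (53) are given after them.

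Naïve CD4 T cells were taken from spleen and lymph nodes of wild-type C57BL/6 mice aged 6 to 10 weeks, and the labels name splenocytes as the source. They were cultured for 3 days with plate-bound anti-CD3, soluble anti-CD28, IL-2, TGF-β, and antibodies to IFNγ and IL-4, which favour regulatory T cells (Tregs). An antisense oligonucleotide (ASO), a short synthetic strand that binds a matching RNA, was present at 10 μM from the start, either directed at Pgam (3 libraries) or scrambled (3 libraries). Cells were not sorted before RNA was taken, so each library holds Tregs and other CD4 T cells together. Total estimated counts ran from 15860476 to 18032805 per library. The authors describe the 3 libraries of a group as biological replicates, and nothing in the labels says whether the cultures came from separate animals, so p-values measure the spread between these samples, which may in part be technical.

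Pro-survival members bind and hold the effectors BAX and BAK, which otherwise form pores in the outer mitochondrial membrane and release cytochrome c. BH3-only proteins are the sensors of the family: each is induced or activated by its own kinds of stress, and occupies the pro-survival proteins or engages the effectors directly. In T cells, BCL2 and MCL1 sustain survival under cytokines such as IL-7 and IL-2, while BIM, the product of *Bcl2l11*, removes self-reactive thymocytes and cells that have lost their growth factors.

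The targeted genes were examined first. *Pgam1*, which encodes the glycolytic enzyme phosphoglycerate mutase, stood at 599.6, 478 and 707 CPM (counts scaled to library size with edgeR's TMM factors) in scrambled ASO replicates 1, 2 and 3. It stood at 658, 661 and 707 CPM in Pgam ASO replicates 1, 2 and 3. *Pgam2*, the muscle form of the same enzyme, was at 5.23, 6.75 and 2.85 CPM and at 2.98, 2.69 and 2.60 CPM in the same order. The groups overlapped for both genes, and edgeR's quasi-likelihood test gave an adjusted p of 0.331 for *Pgam1* and 0.0854 for *Pgam2*, by Benjamini-Hochberg adjustment over all 14936 tested genes. Without scrambled ASO replicate 3, *Pgam2* passed the threshold, with a log2 change of -1.11 (edgeR adjusted p = 0.0144), and with all 6 libraries it passed when low counts were not filtered (-0.83, 0.0292). In edgeR's test with its count filter and all 6 libraries neither of the targeted genes was past an adjusted p of 0.05, so the groups are named by what their labels say. All fold changes, given on the log2 scale, are those of libraries labelled Pgam ASO over libraries labelled scrambled ASO.

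All 10 members had enough counts to be tested, and 5 of them passed an adjusted p of 0.05, against 17.2% of all tested genes. Only *Bcl2* was higher in the Pgam ASO libraries (1 of 10 members, against 8.03% of all tested genes). *Mcl1*, *Bcl2l11*, *Bbc3* and *Pmaip1* were lower (4 of 10, against 9.15%). The groups did not overlap for 6 members, these 5 and *Bax*, against 39.5% of all tested genes. The median log2 change was 0.05 over the members and -0.01 over all tested genes, with most BH3-only members below 0 and both effectors above it. With 1 library left out, the number of members that passed ran from 2 to 6. It was 2 without Pgam ASO replicate 2 and 3 without scrambled ASO replicate 1. The calls among all tested genes, 2565 with every library, numbered 391 without Pgam ASO replicate 2, 620 without scrambled ASO replicate 1, 871 without Pgam ASO replicate 1 and 1256 without scrambled ASO replicate 2. No test of a difference between the members, or any list below, and the share of all genes was made.

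**Figure D1:**
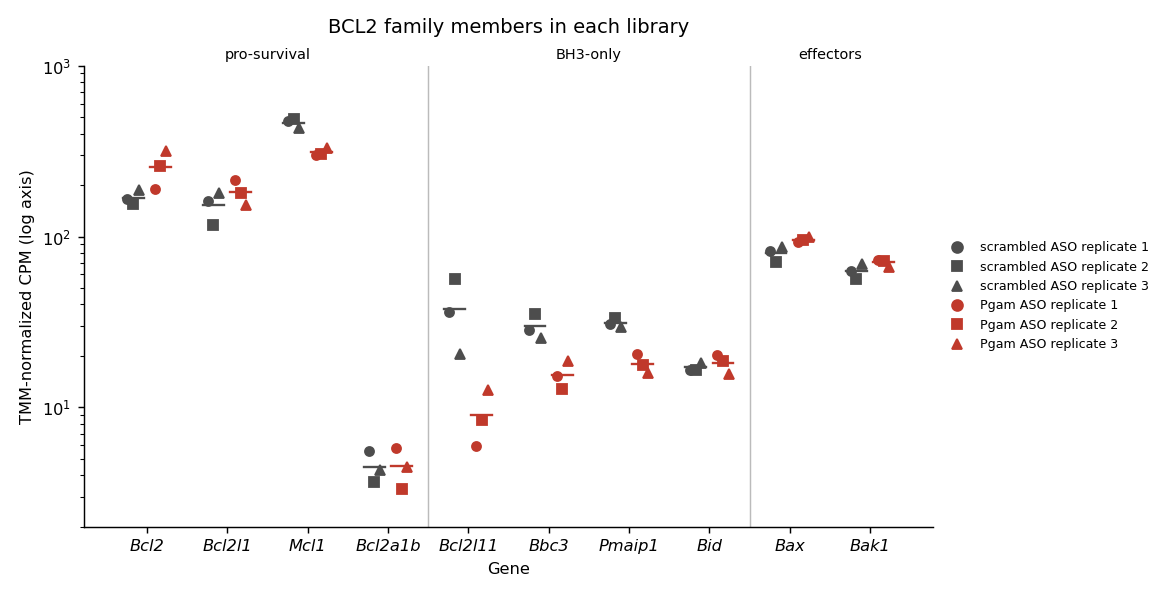
Expression of each of the 10 members (horizontal axis) in TMM-normalized CPM on a log axis (vertical axis), with 1 point per library and a short line at each group mean. The 3 Pgam ASO points of *Bcl2l11*, *Bbc3*, *Pmaip1* and *Mcl1* lie below all 3 scrambled ASO points, and those of *Bcl2* and *Bax* lie above them.

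Among the pro-survival genes, *Bcl2* and *Mcl1* moved in opposite directions. *Bcl2* (ENSMUSG00000057329, chromosome 1, 106538178 to 106714274) encodes the protein that gave the family its name. It stood at 166, 155 and 187 CPM in scrambled ASO replicates 1, 2 and 3 and at 189, 260.0 and 315 CPM in Pgam ASO replicates 1, 2 and 3. The groups did not overlap, but Pgam ASO replicate 1 lay only just above the highest scrambled library. The means were 169 ± 16.2 CPM and 255 ± 63.6 CPM (SD, n = 3 each), so the spread was wider among the Pgam ASO libraries. Expression was 1.51-fold higher, a log2 change of 0.59 (standard error 0.17, 95% interval 0.21 to 0.97, edgeR adjusted p = 0.0419). This call was lost without scrambled ASO replicate 1 (adjusted p = 0.120), scrambled ASO replicate 2 (0.187), Pgam ASO replicate 2 (0.133) or Pgam ASO replicate 3 (0.0635), where edgeR's log2 fold change ran from 0.41 to 0.58. It was also lost when libraries were scaled by their size alone (edgeR adjusted p = 0.0616).

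*Mcl1* (ENSMUSG00000038612, chromosome 3, 95658788 to 95663176) encodes a short-lived pro-survival protein that must be made continuously. Its level was 472, 488 and 431 CPM in scrambled ASO replicates 1, 2 and 3, and 299.7, 303 and 332 CPM in Pgam ASO replicates 1, 2 and 3. All 3 Pgam ASO libraries were well below all 3 scrambled libraries, and the libraries within each group lay close together. Expression was 1.49-fold lower, with a log2 change of -0.57 (edgeR adjusted p = 0.00352, standard error 0.09). The call held with each library left out, where log2 fold changes ran from -0.62 to -0.54. In unsorted cultures, a smaller share of cells that express a gene and less RNA per cell cannot be told apart, for *Mcl1* as for every gene below.

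The ratio of *Bcl2* to *Mcl1* therefore shifted in every Pgam ASO library. Taken per kilobase of transcript (TMM CPM divided by the median length of the gene's protein-coding transcripts), it was 0.150, 0.135 and 0.185 in scrambled ASO replicates 1, 2 and 3. In Pgam ASO replicates 1, 2 and 3 it was 0.268, 0.366 and 0.405. The ranges did not overlap, and the group mean was 2.21 times as large in the Pgam ASO libraries. With every Pgam ASO library higher in *Bcl2* and lower in *Mcl1* than any scrambled one, this ratio could not overlap. It adds no evidence beyond the values of the genes themselves. *Mcl1* was still the more abundant transcript of the pair in all 6 libraries.

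*Bcl2l1* (ENSMUSG00000007659), which encodes BCL-XL, did not pass the test. It stood at 161, 116 and 180.5 CPM in scrambled ASO replicates 1, 2 and 3 and at 215, 179 and 152 CPM in Pgam ASO replicates 1, 2 and 3. The groups overlapped, with the lowest value in scrambled ASO replicate 2. Its log2 change was 0.26 with a 95% interval from -0.13 to 0.64 (edgeR adjusted p = 0.323), so an increase of up to that size is not excluded by these libraries.

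*Bcl2a1b* (ENSMUSG00000089929, chromosome 9, 89199209 to 89207827) is 1 of several nearly identical mouse copies of the gene for BFL-1, a pro-survival protein induced on lymphocyte activation. Its coding sequence differs from that of *Bcl2a1d* at 6 of 516 bases (98.8% identity), and the first 90 coding bases of both are shown to make plain how little separates them. Capitals mark the 2 bases that differ in this stretch.
Bcl2a1b: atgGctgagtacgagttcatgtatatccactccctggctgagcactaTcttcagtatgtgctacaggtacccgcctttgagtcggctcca
Bcl2a1d: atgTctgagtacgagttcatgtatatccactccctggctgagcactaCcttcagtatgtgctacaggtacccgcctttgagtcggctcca
Of all stretches of 31 bases in the *Bcl2a1b* transcripts, 88.8% also occur in another gene, mainly *Bcl2a1d* (72.4%), *Bcl2a1a* (56.7%) and *Gm29094* (47.3%). The deposited counts had to be divided among such copies, so the values of each copy alone are uncertain. As deposited, *Bcl2a1b* had 99, 68 and 69 counts in scrambled ASO replicates 1, 2 and 3 and 93, 52 and 76 counts in Pgam ASO replicates 1, 2 and 3. *Bcl2a1d* took more of them, with 290, 243 and 288 counts against 432, 301 and 216. The groups overlapped for both copies. The log2 fold change of *Bcl2a1b* was 0.01 (95% interval -0.58 to 0.60, edgeR adjusted p = 0.982), and it was negative at -0.03 when libraries were scaled by size alone. It was also negative without scrambled ASO replicate 2 (-0.12), scrambled ASO replicate 3 (-0.02) or Pgam ASO replicate 1 (-0.20). Summed over all 4 copies, there were 391, 312 and 358 counts in scrambled ASO replicates 1, 2 and 3 and 525, 359 and 295 counts in Pgam ASO replicates 1, 2 and 3. That sum had a log2 change of 0.26 (95% interval -0.22 to 0.74, edgeR adjusted p = 0.418).

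Of the 4 BH3-only members, 3 fell in the libraries labelled Pgam ASO, against 9.15% of all tested genes that were lower. *Bcl2l11* (ENSMUSG00000027381, chromosome 2, 128126038 to 128162547), which encodes BIM, had the largest fold change of the 10 members. It stood at 36.0, 56.3 and 20.6 CPM in scrambled ASO replicates 1, 2 and 3, and at 5.96, 8.47 and 12.7 CPM in Pgam ASO replicates 1, 2 and 3. The groups did not overlap, yet each was widely spread, and replicate 3 of each group lay nearest to the other group. Expression was 4.16-fold lower, a log2 change of -2.06 (standard error 0.43, 95% interval -3.09 to -1.02, edgeR adjusted p = 0.0267). It lost the call without scrambled ASO replicate 1 (log2 fold change -2.09, edgeR adjusted p = 0.0772), Pgam ASO replicate 1 (-1.83, 0.0853) or Pgam ASO replicate 2 (-2.01, 0.110), and with no filter on low counts (-2.04, 0.110). DESeq2 and limma-voom called it with all 6 libraries, with adjusted p of 0.000717 and 0.0170.

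*Bbc3* (ENSMUSG00000002083, chromosome 7, 16308393 to 16318205) encodes PUMA, a killer induced by p53 and by FOXO factors. It stood at 28.5, 35.4 and 25.3 CPM in scrambled ASO replicates 1, 2 and 3 and at 15.2, 12.8 and 18.6 CPM in Pgam ASO replicates 1, 2 and 3. All 3 Pgam ASO libraries lay below the scrambled ones, and scrambled ASO replicate 2 was again the highest. The difference was 1.92-fold, with a log2 change of -0.94 (edgeR adjusted p = 0.00813, standard error 0.17). Without Pgam ASO replicate 2 it was -0.82 with an edgeR adjusted p of 0.0558.

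*Pmaip1* (ENSMUSG00000024521) encodes NOXA, which binds MCL1 with preference and promotes its breakdown. It stood at 30.8, 33.3 and 29.7 CPM in scrambled ASO replicates 1, 2 and 3 and at 20.5, 17.7 and 15.9 CPM in Pgam ASO replicates 1, 2 and 3. The gap between the groups was wider than the range within either. Expression was 1.73-fold lower, with a log2 change of -0.79 (standard error 0.12, edgeR adjusted p = 0.00421), and it was called with any library left out. Here Pgam ASO replicate 3 was the lowest library, whereas for *Bcl2l11* and *Bbc3* it was the highest of its group. With both transcripts lower, the per-kilobase ratio of *Mcl1* to *Pmaip1* overlapped between groups, at 17.6 ± 0.506 in the scrambled and 20.8 ± 3.71 in the Pgam ASO libraries (SD, n = 3 each).

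*Bid* (ENSMUSG00000004446, chromosome 6, 120891930 to 120916853), which links death receptors to mitochondria after cleavage by caspase-8, did not share this pattern. It was at 16.7, 16.6 and 18.2 CPM in scrambled ASO replicates 1, 2 and 3 and at 20.2, 18.7 and 15.7 CPM in Pgam ASO replicates 1, 2 and 3. The groups overlapped, and its log2 change was 0.08 (95% interval -0.21 to 0.38, edgeR adjusted p = 0.685). The median log2 fold change of the 4 BH3-only members was -0.87.

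The effectors lay on the other side. *Bax* (ENSMUSG00000003873, chromosome 7, 45461697 to 45466898) stood at 82.0, 70.6 and 87.1 CPM in scrambled ASO replicates 1, 2 and 3 and at 92.4, 94.8 and 98.7 CPM in Pgam ASO replicates 1, 2 and 3. Every Pgam ASO library was above every scrambled one, by a small margin. Its log2 change was 0.26 (95% interval 0.05 to 0.46), and it did not pass the threshold with all 6 libraries (edgeR adjusted p = 0.0852). Without scrambled ASO replicate 3 it passed, at 0.32 (edgeR adjusted p = 0.0431). *Bak1* (ENSMUSG00000057789, chromosome 17, 27019810 to 27029009) was at 62.4, 56.5 and 69.0 CPM against 72.7, 72.2 and 66.5 CPM in the same order. Its groups overlapped, with a log2 change of 0.17 (95% interval -0.04 to 0.38, edgeR adjusted p = 0.235). Thus edgeR called 0 of the 2 effectors, against 17.2% of all tested genes, 1 of them had an unadjusted p under 0.05, and DESeq2 and limma-voom each called 0. Other genes hold 11.1% of the 31-base stretches of *Bax*, mostly *Gm45808*, which had no counts.

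**Figure D2:**
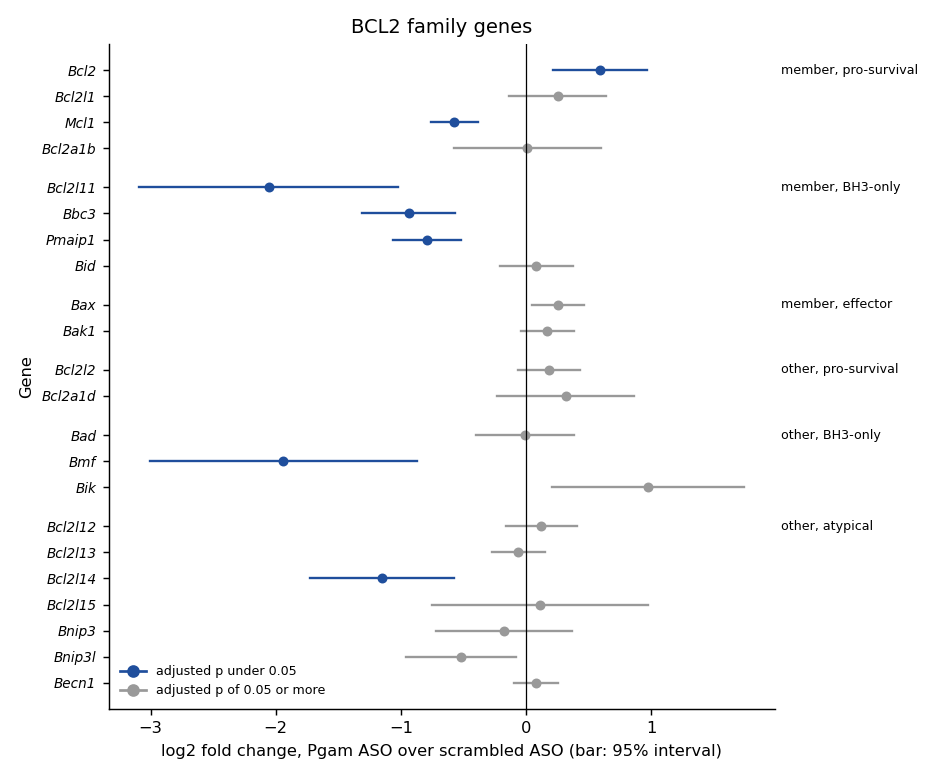
Log2 fold change of libraries labelled Pgam ASO over scrambled ASO (horizontal axis) for the 10 members and the 12 other family genes that were tested (vertical axis), with 95% intervals as bars and colour for a call by edgeR at an adjusted p below 0.05. *Bcl2l11* and *Bmf* lie furthest to the left, at -2.06 and -1.94, with the widest intervals among the called genes.

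Levels of different genes were compared per kilobase of transcript. In the scrambled libraries *Mcl1* was the most abundant member at 217 ± 13.6 TMM CPM per kilobase (SD, n = 3), above all others in each library. *Bax* (99.7 ± 10.6) and *Bcl2l1* (93.4 ± 20.1) followed with overlapping ranges, and *Bcl2l1* also overlapped *Bbc3* (61.3 ± 10.6). *Bak1* (38.1 ± 3.81) and *Bcl2* (33.7 ± 3.24) overlapped each other. Levels were lower for *Bcl2l11* (15.1 ± 7.19), *Bid* (12.6 ± 0.666) and *Pmaip1* (12.3 ± 0.726), whose ranges overlapped in that order, and *Bcl2a1b* had the lowest mean (5.52 ± 1.19), which depends on how counts were divided among its copies. In the Pgam ASO libraries *Mcl1* was still the first at 146 ± 8.27, ahead of *Bax* (119 ± 3.95) and *Bcl2l1* (111 ± 19.3). *Bcl2* moved from rank 6 to rank 4 at 50.8 ± 12.7, where its range overlapped that of *Bak1* (42.9 ± 2.10). *Bcl2l11* went from rank 7 to rank 10 at 3.63 ± 1.36, overlapping *Bcl2a1b* (5.55 ± 1.49).

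The order of several members depends on the length used, as does the level of *Bbc3*. Its protein-coding transcripts have a median length of 485 bases and the longest has 1814, so its scrambled level was 61.3 by the median and 16.4 by the longest transcript, in TMM CPM per kilobase. By the longest transcripts *Bbc3* had rank 6 instead of rank 4 in the scrambled libraries. *Bcl2* then went only from rank 5 to rank 4 between the groups, and *Bcl2l11* from rank 8 to rank 10, while *Bak1*, *Bid* and *Pmaip1* also changed places. *Mcl1*, *Bax* and *Bcl2l1* kept the first places in both groups by either length. By the longest transcripts, however, the ranges of *Mcl1* and *Bax* overlapped in the Pgam ASO libraries.

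Summed over roles, the 4 pro-survival members stood at 359, 335 and 355 TMM CPM per kilobase in scrambled ASO replicates 1, 2 and 3 and at 316, 307 and 317 in Pgam ASO replicates 1, 2 and 3. The 4 BH3-only members stood at 97.6, 121 and 85.6 and at 56.7, 50.4 and 61.2, in the same order. The 2 effectors stood at 140.3, 122 and 151 and at 159.6, 162 and 164. No sum overlapped between groups: the pro-survival and BH3-only sums were lower in every Pgam ASO library, and the effector sum was higher. Of the pro-survival means only that of *Mcl1* fell, from 217 to 146, so that class did not fall as a whole. *Bcl2* (33.7 to 50.8) and *Bcl2l1* (93.4 to 111) rose, and *Bcl2a1b* stayed level (5.52 to 5.55). Of the BH3-only means, *Bbc3* fell most, from 61.3 to 32.0, and *Bid* did not fall (12.6 to 13.4).

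The shifts of the sums went in different directions when set against each other. The ratio of pro-survival to BH3-only sums was 3.68, 2.77 and 4.14 in scrambled ASO replicates 1, 2 and 3 and 5.58, 6.09 and 5.18 in Pgam ASO replicates 1, 2 and 3. It was higher in every Pgam ASO library, and its mean was 1.59 times as large. The ratio of pro-survival to effector sums was lower in every Pgam ASO library, with means of 2.55 ± 0.190 and 1.94 ± 0.0458 (SD, n = 3 each). The ratio of pro-survival to all pro-apoptotic members was 1.51, 1.38 and 1.5 in scrambled ASO replicates 1, 2 and 3 and 1.46, 1.44 and 1.41 in Pgam ASO replicates 1, 2 and 3. The groups overlapped in this ratio, with means of 1.46 ± 0.0746 and 1.44 ± 0.0276 (SD, n = 3 each). With the longest transcripts as lengths, which give *Bbc3* less weight, the means were 1.59 and 1.44 and the groups no longer overlapped. With all Bcl2a1 copies counted with *Bcl2a1b*, both means were 1.54 and the groups overlapped. For the single pair of *Bcl2* over *Bcl2l11*, the ratio was 2.29, 1.37 and 4.51 in scrambled ASO replicates 1, 2 and 3 against 15.7, 15.2 and 12.4 in Pgam ASO replicates 1, 2 and 3. That pair shifted 5.31-fold between group means, by either length. It joins the only member called higher with the member of the largest fall, so this shift follows from values already given. Such ratios describe transcripts, and no p is given for them.

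**Figure D3:**
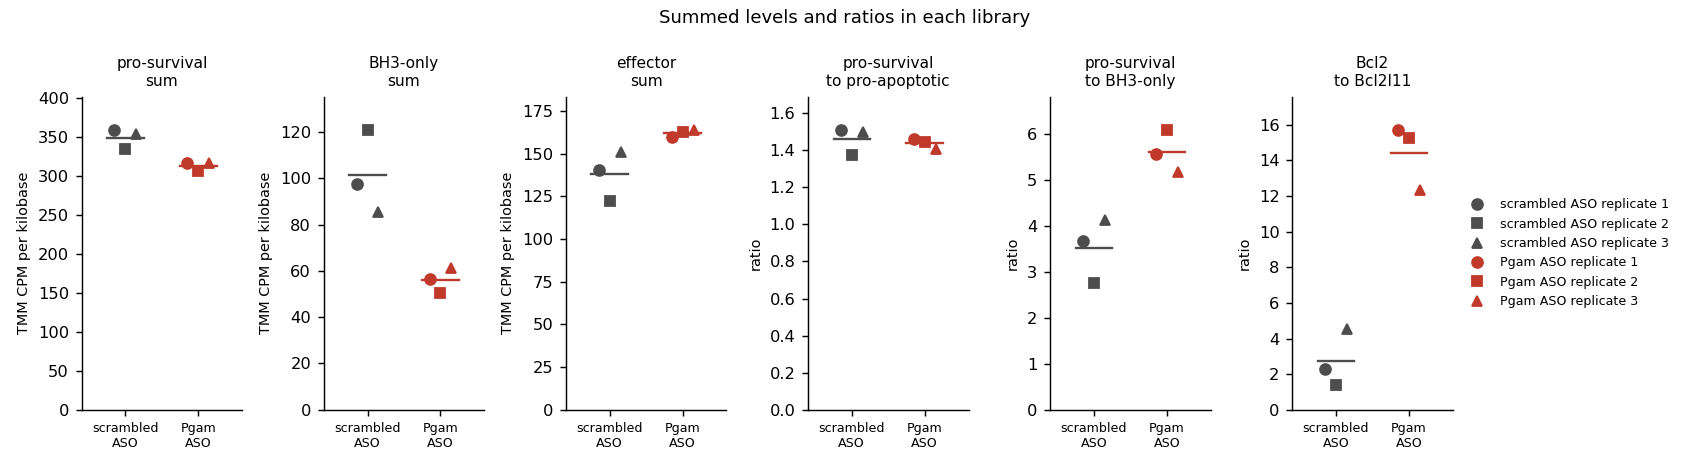
Summed levels per role in TMM CPM per kilobase (first 3 panels) and ratios of per-kilobase levels (last 3 panels) in each library, with 1 point per library and a line at each group mean; every axis starts at 0. Pgam ASO libraries lie lower in the BH3-only sum and higher in the ratio of pro-survival to BH3-only members, while the ratio to all pro-apoptotic members overlaps.

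Of the 17 other family genes, 12 were tested and 2 passed, which is 16.7% and close to the 17.2% of all tested genes. Both were lower. Of these 2 calls, 0 remained without scrambled ASO replicate 1 or Pgam ASO replicate 2, and 1 without scrambled ASO replicate 2 or Pgam ASO replicate 1. *Bmf*, a BH3-only gene whose protein is held at the cytoskeleton, stood at 4.95, 8.32 and 5.02 CPM in scrambled ASO replicates 1, 2 and 3 and at 0.683, 1.03 and 3.02 CPM in Pgam ASO replicates 1, 2 and 3. The groups did not overlap, and Pgam ASO replicate 3 was again nearest to the scrambled libraries. These levels rest on 11 to 154 counts per library. Its log2 change was -1.94 (edgeR adjusted p = 0.0270, standard error 0.48). Without Pgam ASO replicate 3 it was -2.82. The call was lost without scrambled ASO replicate 1 (-2.07, edgeR adjusted p = 0.0649), scrambled ASO replicate 2 (-1.65, 0.0769), Pgam ASO replicate 1 (-1.58, 0.0639) or Pgam ASO replicate 2 (-1.71, 0.116). *Bcl2l14*, an atypical member whose function is little known, stood at 3.43, 4 and 3.72 CPM against 1.99, 1.54 and 1.48 CPM. It was lower in all 3 Pgam ASO libraries, with a log2 change of -1.15 (edgeR adjusted p = 0.0189, standard error 0.26). It missed the threshold without scrambled ASO replicate 1 (-1.21, edgeR adjusted p = 0.0621) or Pgam ASO replicate 2 (-1.10, 0.0919).

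The remaining tested genes of the family did not pass edgeR's test with its count filter and all 6 libraries. *Bik*, a BH3-only gene of the endoplasmic reticulum, lay the other way from *Bmf*, at 1.58, 0.972 and 1.92 CPM against 3.91, 2.44 and 2.43 CPM. Its groups did not overlap, and its log2 change was 0.98 (95% interval 0.21 to 1.74, edgeR adjusted p = 0.0743). It passed without scrambled ASO replicate 3 (1.20, edgeR adjusted p = 0.0488) and with no filter on low counts (0.99, 0.0433). *Bnip3l*, a receptor for the removal of mitochondria, stood at 208, 222 and 236 CPM against 107, 162 and 196 CPM. Its groups did not overlap either, with a log2 change of -0.52 (edgeR adjusted p = 0.0961). It passed in edgeR without Pgam ASO replicate 3 (-0.72, adjusted p = 0.0150). With all 6 libraries it passed in DESeq2 (-0.51, adjusted p = 0.0227) and in edgeR with no filter (-0.51, 0.0000594). Of its 31-base stretches, 23.7% also occur in *Bnip3l-ps*, which had 1419 counts in total, so the values of *Bnip3l* are less certain. For its relative *Bnip3* the value was -0.17 (95% interval -0.72 to 0.37), for *Bad* -0.01 (-0.40 to 0.39) and for *Bcl2l2*, which encodes BCL-W, 0.18 (-0.06 to 0.43). For *Bcl2a1d* it was 0.32 (-0.23 to 0.87), for *Bcl2l12* 0.12 (-0.16 to 0.41), for *Bcl2l13* -0.06 (-0.27 to 0.15), for *Bcl2l15* 0.11 (-0.75 to 0.98) and for the autophagy gene *Becn1* 0.08 (-0.10 to 0.26). The sign changed for *Bad* without scrambled ASO replicate 1 (0.11) or Pgam ASO replicate 2 (0.08), and for *Bcl2l15* without scrambled ASO replicate 1 (-0.0037) or Pgam ASO replicate 1 (-0.07). It also changed for *Bcl2l13* without Pgam ASO replicate 3 (0.03) and for *Bnip3* without Pgam ASO replicate 1 (0.06). *Bcl2l10*, *Bcl2a1a*, *Bcl2a1c*, *Hrk* and *Bok* had too few counts to be tested, with at most 10 counts in any library.

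DNA just ahead of a start site is shown for 4 of the 5 members that passed the test, to set the letters near their starts beside their changes. RefSeq windows of 300 bases, from 250 before to 50 after an annotated start on GRCm38.p6, were found for 9 of the 10 members, all but *Pmaip1*, and for 22 of the 27 family genes. The 250 bases before the start are printed 5′ to 3′ on the gene's own strand, as chr1:106714291-106714540 on the minus strand for *Bcl2*, chr3:95658471-95658720 on the plus strand for *Mcl1*, chr2:128125788-128126037 on the plus strand for *Bcl2l11* and chr7:16310011-16310260 on the plus strand for *Bbc3*. Capitals mark GTAAACA, the core letters that forkhead factors of the FOXO class bind, or its reverse complement TGTTTAC.
Bcl2: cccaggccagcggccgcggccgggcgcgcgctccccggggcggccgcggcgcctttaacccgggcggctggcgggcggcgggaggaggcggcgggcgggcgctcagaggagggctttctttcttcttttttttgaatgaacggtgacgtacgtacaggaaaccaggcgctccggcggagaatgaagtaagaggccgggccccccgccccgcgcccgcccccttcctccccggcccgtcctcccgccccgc
Mcl1: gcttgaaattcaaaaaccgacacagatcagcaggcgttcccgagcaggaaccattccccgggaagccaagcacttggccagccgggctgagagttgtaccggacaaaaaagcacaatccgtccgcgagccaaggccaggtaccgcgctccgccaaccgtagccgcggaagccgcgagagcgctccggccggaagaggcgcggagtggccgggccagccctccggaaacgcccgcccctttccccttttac
Bcl2l11: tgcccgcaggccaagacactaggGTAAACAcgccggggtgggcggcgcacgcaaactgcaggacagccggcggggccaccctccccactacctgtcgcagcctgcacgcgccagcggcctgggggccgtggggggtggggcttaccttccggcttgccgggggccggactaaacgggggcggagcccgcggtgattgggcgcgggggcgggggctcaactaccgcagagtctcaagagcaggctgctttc
Bbc3: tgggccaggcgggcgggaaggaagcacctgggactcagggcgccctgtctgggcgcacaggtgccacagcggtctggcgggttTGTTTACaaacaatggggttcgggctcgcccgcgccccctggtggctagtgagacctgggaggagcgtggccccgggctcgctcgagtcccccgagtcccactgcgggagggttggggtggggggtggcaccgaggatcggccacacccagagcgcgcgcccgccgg
Of the 31 windows of the family, 2 hold these letters, in *Bcl2l11* at chr2:128125811-128125817, ahead of the gene in GENCODE M21, and in *Bbc3* at chr7:16310094-16310100, in an intron in the same annotation. The *Bbc3* window is 1 of 3 that RefSeq gives for alternative starts of that gene, and the *Bcl2l11* window is 1 of 2. The other windows of these 2 genes do not hold the letters. Of all 32851 windows of this length, 3.65% hold the letters on either strand. The E-box CACGTG, present in 7.15% of all windows, was found in windows of *Bax*, *Bbc3* and *Bnip3*. The letters TTCNNNGAA of STAT factors, present in 8.30% of all windows, were not in any window of the family. Such a match describes the letters and does not show binding.

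Around the family, 17 of 52 tested genes passed (9 higher and 8 lower), which is 32.7% against 17.2% of all tested genes. The median log2 fold change of these 52 genes was 0.08. Many of these calls depend on single libraries: of the 17 genes, 6 were still called without scrambled ASO replicate 1, 9 without scrambled ASO replicate 2, 8 without Pgam ASO replicate 1 and 3 without Pgam ASO replicate 2. All 17 were still called without scrambled ASO replicate 3 and 15 without Pgam ASO replicate 3, and the direction of each was kept in all 6 fits. *Rel*, *Sesn2* and *Aen* were called with any library left out.

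Transcription factors upstream of the family made up 5 of the 17 calls, from 11 tested genes (45.5%, against 17.2% of all tested genes). *Foxo1*, which in resting T cells drives genes of quiescence and survival, stood at 167, 220.4 and 135 CPM in scrambled ASO replicates 1, 2 and 3 and at 93.4, 94.3 and 105 CPM in Pgam ASO replicates 1, 2 and 3. *Foxo3*, a known activator of *Bcl2l11* and *Bbc3*, stood at 110.2, 113 and 99.9 CPM against 71.3, 74.9 and 92.1 CPM. Both were lower in every Pgam ASO library, in the same direction as *Bcl2l11* and *Bbc3*, and whether these changes are linked was not tested. For *Foxo1* and *Foxo3* the log2 changes were -0.84 (edgeR adjusted p = 0.0114) and -0.44 (0.0251). Without Pgam ASO replicate 2 neither passed (adjusted p = 0.0681 and 0.123), and *Foxo3* also missed the threshold without scrambled ASO replicate 1 (0.0920), scrambled ASO replicate 2 (0.0535) or Pgam ASO replicate 1 (0.0896). *Rel*, the NF-κB subunit c-Rel that is prominent in T cells, stood at 168, 172 and 161 CPM against 107, 94.8 and 92.6 CPM. It was tightly grouped and 1.70-fold lower, with a log2 change of -0.77 (edgeR adjusted p = 0.000967). *Rela* fell by 0.28 on the log2 scale (edgeR adjusted p = 0.0407), and *Atf4*, a factor of the stress response, rose by 0.41 (0.0315). *Trp53*, which encodes p53, stood at 172 ± 3.82 and 181 ± 3.93 CPM (SD, n = 3 each), with a log2 change of 0.07 (95% interval -0.10 to 0.24).

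Known targets of p53 outside the family gave 2 calls among 7 tested genes (28.6%, against 17.2% of all). *Sesn2*, also a target of *Atf4*, stood at 28.5, 32.0 and 31.7 CPM in scrambled ASO replicates 1, 2 and 3 and at 60.4, 48.7 and 47.7 CPM in Pgam ASO replicates 1, 2 and 3. *Aen*, an exonuclease induced in apoptosis, stood at 44.5, 37.8 and 48.1 CPM against 78.6, 66.1 and 63.5 CPM. Both were higher in every Pgam ASO library than in any scrambled library. For *Sesn2* and *Aen* the log2 changes were 0.77 (edgeR adjusted p = 0.00376) and 0.68 (0.00749). *Eda2r* had too few counts to be tested.

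Among survival cytokine receptors, 2 of 4 passed (50%, against 17.2% of all), and *Il7r* and *Il2ra* moved apart. *Il7r*, the receptor chain through which IL-7 maintains BCL2, stood at 267, 363 and 237 CPM in scrambled ASO replicates 1, 2 and 3 and at 108, 134 and 165 CPM in Pgam ASO replicates 1, 2 and 3. It was 2.13-fold lower, whereas *Bcl2* itself was higher. *Il2ra*, the high-affinity chain of the IL-2 receptor, stood at 1946, 1627 and 2216 CPM against 2908, 2900.1 and 2495 CPM. The groups did not overlap for either. Log2 fold changes were -1.09 (edgeR adjusted p = 0.0116) and 0.52 (0.0185). Without Pgam ASO replicate 2 both missed the threshold (0.0592 and 0.0967), and *Il2ra* also did without scrambled ASO replicate 1 (0.0725) or Pgam ASO replicate 1 (0.0639).

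In the death receptor arm, 4 of 11 genes passed (36.4%, against 17.2% of all). *Fas*, the receptor itself, stood at 33.1, 38.7 and 28.1 CPM against 9.44, 14.3 and 19.6 CPM, while its ligand *Fasl* stood at 13.4, 13.1 and 16.5 CPM against 27.8, 23.1 and 18.2 CPM. Receptor and ligand thus differed in opposite directions, with no overlap between groups for either. Their log2 changes were -1.20 (edgeR adjusted p = 0.0141) and 0.68 (0.0257). *Tnfrsf10b*, a receptor for TRAIL, rose by 0.53 (edgeR adjusted p = 0.0307), and *Casp8*, the initiator caspase that cleaves BID, by 0.43 (0.00980). All 4 missed the threshold without Pgam ASO replicate 2 (adjusted p = 0.0765, 0.108, 0.102 and 0.0721) or scrambled ASO replicate 1 (0.0511, 0.0977, 0.0970 and 0.0631), in the order of *Fas*, *Fasl*, *Tnfrsf10b* and *Casp8*. Without scrambled ASO replicate 2, *Fas* (0.0526), *Fasl* (0.0633) and *Tnfrsf10b* (0.0621) missed it, as did *Fasl* (0.0907) and *Tnfrsf10b* (0.107) without Pgam ASO replicate 1.

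Genes that act at and downstream of the mitochondria gave 4 calls, and the shares below stand against 17.2% of all tested genes. Among apoptosome genes and caspases 1 of 6 passed (16.7%), *Casp6* with a log2 change of 0.36 (edgeR adjusted p = 0.0442). Among released factors and caspase inhibitors 2 of 7 passed (28.6%), both of them inhibitors of the IAP class: *Birc2* fell by 0.74 on the log2 scale (edgeR adjusted p = 0.0107) and *Birc3* fell by 0.28 (0.0331). Among the mitochondrial porins 1 of 3 passed (33.3%), *Vdac2* at 0.34 (edgeR adjusted p = 0.0428). *Birc2* missed the threshold without Pgam ASO replicate 2 (0.0730). *Casp6* and *Vdac2* missed it without scrambled ASO replicate 1 (0.147 and 0.129), scrambled ASO replicate 2 (0.112 and 0.0997), Pgam ASO replicate 1 (0.124 and 0.143) or Pgam ASO replicate 2 (0.180 and 0.153). *Birc3* missed it without scrambled ASO replicate 1 (0.139), Pgam ASO replicate 1 (0.0908), Pgam ASO replicate 2 (0.125) or Pgam ASO replicate 3 (0.0675), and *Rela* was called only when scrambled ASO replicate 3 was the library left out. For *Rela* the values were 0.139, 0.0919, 0.0835, 0.177 and 0.0623 without scrambled ASO replicates 1 and 2 and Pgam ASO replicates 1, 2 and 3. *Atf4* missed it without scrambled ASO replicate 1 (0.0994), scrambled ASO replicate 2 (0.0705), Pgam ASO replicate 1 (0.109) or Pgam ASO replicate 2 (0.132). *Casp6* was also lost when libraries were scaled by size alone (0.0530), and *Birc3* (0.0584) and *Rela* (0.0696) were lost with no filter on low counts. Of the 3 genes that control breakdown of the members, edgeR, DESeq2 and limma-voom each called 0, and 0 had an unadjusted p under 0.05. The most counted of these, *Huwe1*, a ubiquitin ligase of MCL1, had a log2 change of -0.01 (95% interval -0.18 to 0.16), which was positive without scrambled ASO replicate 1 (0.0026) or Pgam ASO replicate 3 (0.04).

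**Figure D4:**
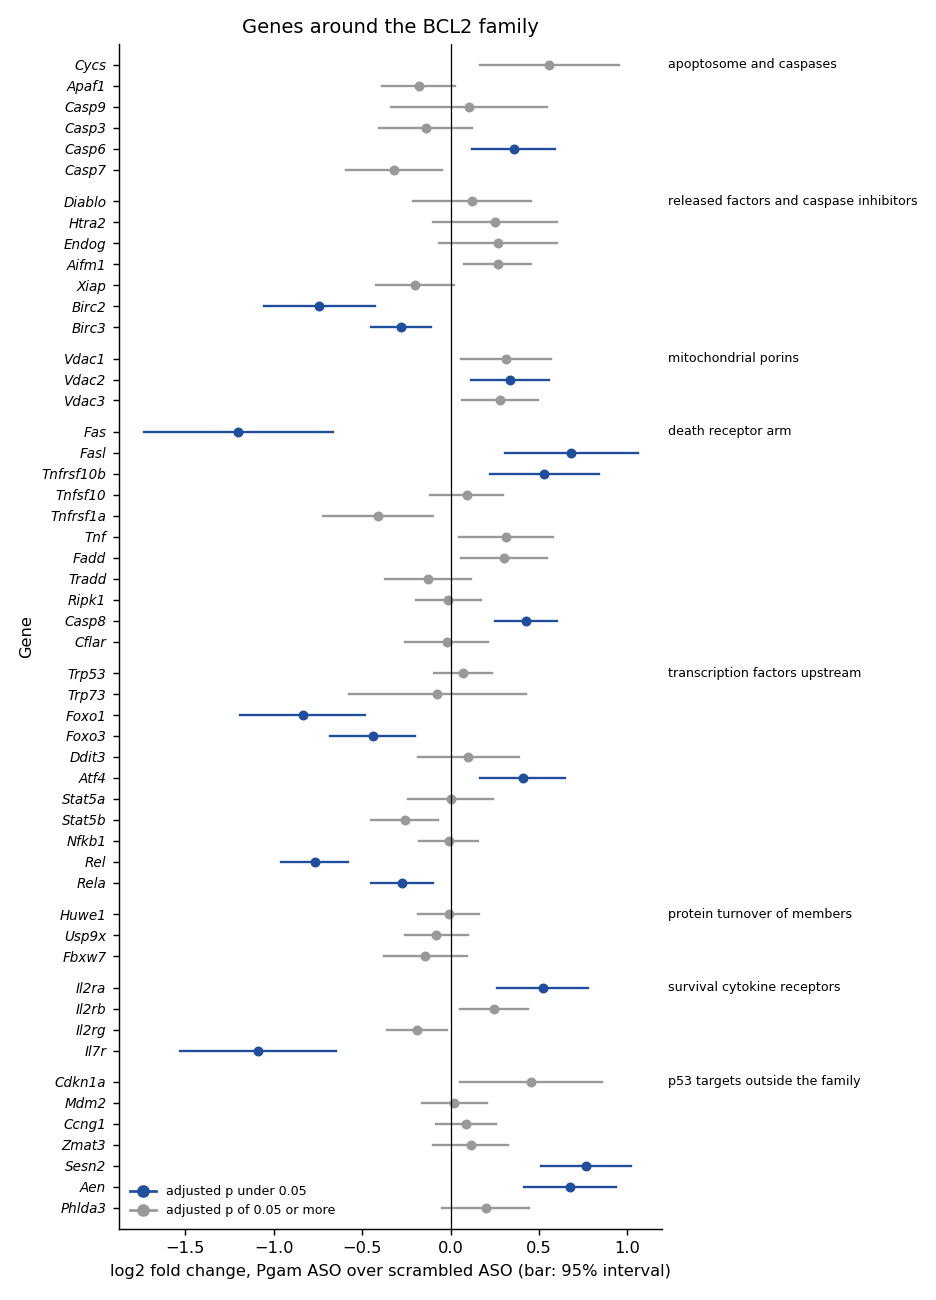
Log2 fold change of libraries labelled Pgam ASO over scrambled ASO (horizontal axis) for the 52 tested genes around the family (vertical axis, grouped by role), with 95% intervals as bars and colour for a call by edgeR at an adjusted p below 0.05. *Fas* and *Il7r* lie furthest to the left, at -1.20 and -1.09, and *Sesn2* furthest to the right among the called genes, at 0.77.

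Cell type markers were read in the same libraries. All 9 T cell markers were expressed, with *Cd4* the most counted, and their summed level was 3282, 3447 and 3110 CPM in scrambled ASO replicates 1, 2 and 3 and 2841, 2873 and 2966 CPM in Pgam ASO replicates 1, 2 and 3. Of these 9, *Cd5* and *Trac* were called lower (2 of 9, against 9.15% of all tested genes). Their calls were kept in 4 and 2 of the 6 fits with a library left out. The 5 Treg markers summed to 3029, 2886 and 3331 CPM against 3722, 3750.1 and 3378 CPM, which is mostly *Il2ra*. *Foxp3*, which defines the Treg lineage, went the other way from that sum, at 282, 371 and 222 CPM against 89.7, 109 and 131 CPM. It was 2.66-fold lower, with a log2 change of -1.41 (edgeR adjusted p = 0.00567), called in all 6 fits with a library left out. *Ikzf2* was also called lower, in 2 of the 6 fits. Thus 2 of the 5 Treg markers were called lower, against 9.15% of all tested genes, and 1, *Il2ra*, higher, against 8.03%. *Foxp3* was highest in scrambled ASO replicate 2 and, within its group, in Pgam ASO replicate 3, as *Bcl2l11*, *Bbc3* and the pro-survival gene *Mcl1* were. *Pmaip1* did not follow this order. Of the other Treg markers, *Ikzf2* followed it, and *Il2ra*, *Ctla4* and *Tnfrsf18* did not. How many of all tested genes follow this order was not counted. Among the 9 T cell markers, *Cd3d*, *Cd3e*, *Cd3g*, *Cd247*, *Trac* and *Cd4* followed it, and *Cd2*, *Cd5* and *Lck* did not. Whether a smaller share of Treg cells takes part in the lower BH3-only transcripts was not tested.

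Markers of other cells were scarce. Calls among them stand against 8.03% of all tested genes called higher and 9.15% called lower. The 2 CD8 markers summed to between 10.8 and 15.7 CPM per library, mostly *Cd8b1*, and *Cd8a* was called higher (in 4 of 6 fits with a library left out). The 5 B cell markers summed to between 6.63 and 11.6 CPM, led by *Cd79a*, and the 5 of macrophages and monocytes to between 5.52 and 8.70 CPM, led by *Cd68*. With 0 edgeR calls for either type, unadjusted p was under 0.05 for 2 B cell and 1 macrophage marker, DESeq2 called 2 and 0, and limma-voom called 0 of both. The 5 neutrophil markers summed to between 0.991 and 3.85 CPM, led by *S100a9*, and the 4 erythroid ones to between 1.55 and 2.70 CPM, led by *Alas2*; edgeR, DESeq2 and limma-voom each called 0 of them, and unadjusted p was under 0.05 for 0. For the 6 mast cell and basophil markers the sum was between 6.54 and 7.93 CPM, led by *Kit*, which was called lower (in 4 of 6 such fits) while *Gata2* was called higher (in 1 of 6). That flat sum hides scarce markers that moved the other way from *Kit*: *Cpa3*, *Mcpt8* and *Fcer1a* were higher in every Pgam ASO library than in any scrambled library. Groups did not overlap for 39.5% of all tested genes. The remaining marker, *Ms4a2*, overlapped, at 2, 3 and 7 counts against 5, 8 and 3. *Cpa3* was not called. *Mcpt8*, *Fcer1a* and *Ms4a2* had too few counts to be tested, with at most 16, 8 and 8 in any library. The 4 NK cell markers summed to between 24.4 and 55.1 CPM, almost all of it *Eomes*, which activated T cells also express and which was called lower (in 3 of 6). *Klrb1c*, which defines NK cells, was at 0 in every library.

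**Figure D5:**
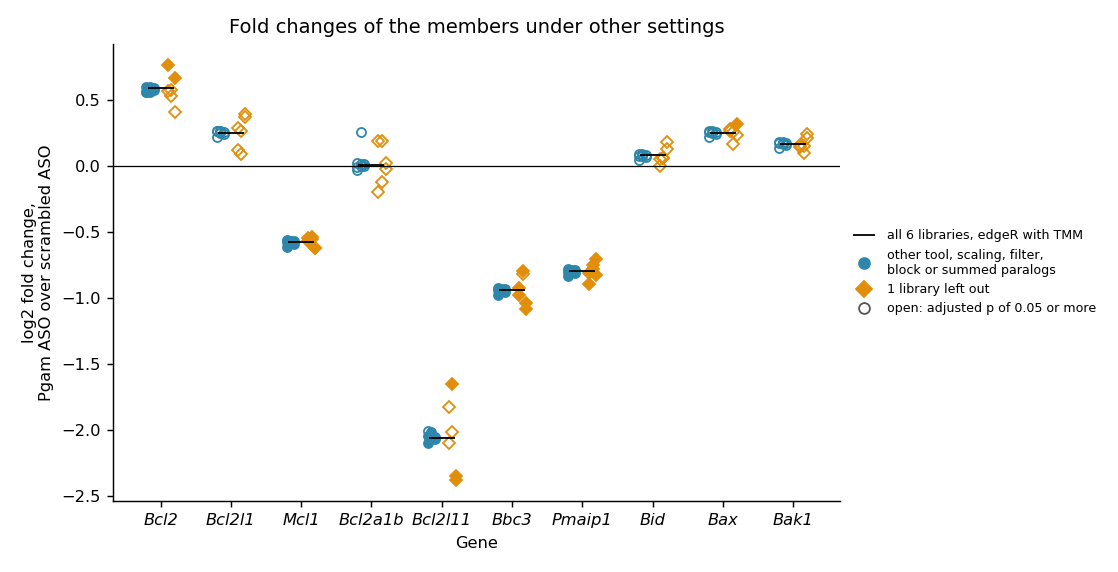
Log2 fold change of each member (horizontal axis) under other settings (vertical axis): a black line for all 6 libraries with edgeR and TMM, circles for another tool, scaling, filter, block or summed copies, and diamonds for 1 library left out, open where the adjusted p was 0.05 or more. *Mcl1* and *Pmaip1* are filled throughout, *Bcl2l11* and *Bcl2* are open in several settings, and *Bcl2a1b* is the only member with points on both sides of 0.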

How the data were processed

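RNA-seq libraries of 6 CD4 T cell cultures were analysed, 3 labelled scrambled ASO and 3 labelled Pgam ASO, grouped by their labels. The authors deposited estimated counts per Ensembl gene, made with Kallisto (version and annotation not given in the sources used here), as whole numbers, so rounding changed nothing; GRCm38 stands in the submitters' processing notes. Of 56748 rows, 52073 matched a symbol and GENCODE M21, which gave coordinates, transcript lengths and shared stretches of 31 bases. The table also holds gene identifiers absent from M21, so the annotation behind the counts differs from the one used for these values. 0 columns were left out. Pairs of libraries were checked for duplicates with a chi-square over its degrees of freedom, 6.75 or more.

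R 4.3.3 and edgeR 4.0.16 were used: filterByExpr kept 14936 genes, libraries were scaled by TMM (factors 0.972 to 1.03), and the quasi-likelihood test (robust, two-sided) gave p-values, adjusted by Benjamini-Hochberg and called below 0.05. The script was tested on simulated data. Standard errors were derived from the test, as the absolute log2 change over the square root of its F statistic. Intervals are 95% and use that standard error with a t quantile. Totals of 15860476 to 18032805 counts limit genes of a few counts.

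Members and lists were chosen with earlier results of these data known, so no test was run over a list. Genes were named by rule: all tested family genes, both targeted genes, of each pathway role every gene with an adjusted p under 0.05 or else the most counted, and markers as sums with the most counted gene. *Foxp3*, *Ikzf2*, *Cd5*, *Trac*, *Cd8a*, *Gata2*, *Cpa3*, *Mcpt8*, *Fcer1a*, *Cd3d*, *Cd3e*, *Cd3g*, *Cd247*, *Cd2*, *Lck*, *Klrb1c* and *Trp53* were named after their values were seen. So were *Ctla4*, *Tnfrsf18*, *Ms4a2* and *Bnip3l-ps*. Promoters are from RefSeq with GRCm38.p6. Alternatives were DESeq2 1.42.0, limma-voom (limma 3.58.1), RLE factors, library size alone, no filter (at least 1 count), a filter of 10 counts or more in all libraries, a replicate block, leaving out each library in turn, an adjusted p under 0.01, absolute log2 changes of 1 or more, Bcl2a1 copies summed, and the longest transcript as length.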

Additional observations from a re-analysis of the deposited data

How the results depend on the processing

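Of the 5 member calls, those of *Mcl1* and *Pmaip1* held under every tool, scaling, filter and left-out library. Over tools, scalings, filters, summed copies and block, 74 of 80 member values kept direction and side of the threshold, 3 lost the call and 3 changed sign. With 1 library left out, 48 of 60 did, 8 lost the call, 1 gained it and 3 changed sign. Over all genes the 2565 calls became 453 at an adjusted p under 0.01 and 674 at absolute log2 changes of 1 or more, and 391 to 3484 with 1 library left out. For members the 5 calls became 3 and 1 under those thresholds, and 2 to 6 with a library left out. For other family genes the 2 calls became 0 at an adjusted p under 0.01, 4 with no filter, and 0 to 3 with a library left out. For pathway genes the 17 calls became 4, 2 and, with a library left out, 3 to 21. Equal replicate numbers did not pair the samples (Pearson r of deviations across genes 0.0997, -0.0424 and -0.314), and with the replicate block the calls were 1235 over all genes, 4 of members, 2 of other family genes and 9 of pathway genes. With that block *Bcl2l11* (-2.00, edgeR adjusted p = 0.0628) and *Bcl2l14* (-1.16, 0.0517) lost the call and *Bnip3l* (-0.56, 0.0483) gained it. Among pathway genes *Casp6* (0.105), *Birc3* (0.0918), *Vdac2* (0.0976), *Fasl* (0.0637), *Tnfrsf10b* (0.0597), *Foxo3* (0.0619), *Atf4* (0.0759) and *Rela* (0.106) lost it. Sign changes were all in genes with 95% intervals that span 0. *Bcl2a1b* was at -0.0252 by library size alone, -0.0002 with at least 10 counts, -0.0014 with the replicate block, and -0.197 to 0.189 with a library left out. *Bad* was at 0.0045 in DESeq2, 0.0028 with no filter and -0.0992 to 0.109 with a library left out. *Huwe1* was at 0.0021, 0.0005 and -0.0472 to 0.0354 likewise. With a library left out, *Bcl2l13* ran from -0.123 to 0.0308, *Bcl2l15* from -0.0668 to 0.295 and *Bnip3* from -0.402 to 0.0642. The cause of these differences was not tested; each left-out library also removes a sample. Depth limits *Bcl2l15*, *Bik* and *Bmf*, with as few as 12, 18 and 11 counts in a library.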
